A study of Mus musculus with 6 samples.

Results

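The genes described here are the histone genes detected in polyadenylated RNA of mouse bone marrow-derived macrophages (BMDMs). They were chosen by symbol from the mouse annotation of GRCm39, as genes named H1, H2ac, H2bc, H2a with z, x, j or p, H2bu, H3c, H3f3 or H4c, with at least 10 estimated counts in total. Of the 89 genes with such a symbol, 87 were in the deposited tables and 78 passed the minimum. H13 passed by its letters but encodes a signal peptide peptidase, which left 77 histone genes among 18506 genes tested. Of these, 65 were replication-dependent genes (5 for H1, 17 for H2A, 18 for H2B, 12 for H3 and 13 for H4) and 8 were variant or replacement histones. The other 4 were the germline linker histone H1f6 and the pseudogenes H3f3c, H2ac5-ps and H2ac14-ps. H1f7, H1f8, H1f9, H2ac1, H2bc1 and H2ap, together with 3 pseudogenes, stayed under the minimum.

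Histones package DNA into nucleosomes, whose core holds H2A, H2B, H3 and H4, while H1 binds the linker DNA. Replication-dependent histone genes lie in clusters and are transcribed in S phase under the coactivator NPAT, and their messages typically end in a stem-loop bound by SLBP instead of a poly(A) tail. Variant histones are made through the whole cell cycle from ordinary polyadenylated messages and are placed in chromatin by their own chaperones. Some replication-dependent genes also give polyadenylated messages, which are known in differentiated cells, so levels in poly(A)-selected RNA are not the total amount of these messages.

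WT BMDMs came from LysM-Cre+/- Drp1+/+ mice, and Drp1 KO BMDMs came from mice that were LysM-Cre+/- and Drp1 fl/fl (Drp1 is the product of Dnm1l, a dynamin-related GTPase of mitochondrial fission), so both groups carried Cre driven by the lysozyme M promoter of myeloid cells. The mice were young adults of both sexes, and marrow of a pair of mice per genotype was pooled. On day 7 of culture with medium conditioned by L929 cells, the BMDMs were given serum-free medium under 2.1% oxygen for 8 h (hypoxia with serum starvation, HSS). All 6 libraries, 3 WT and 3 Drp1 KO, had this treatment, so no library shows histone messages before HSS. The sources do not say whether the 3 libraries of a genotype came from separate marrow pools, so p-values measure the spread between these libraries, which may be technical.

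Depth ran from 23389488 to 32231206 estimated counts a library, so that 3 counts, taken as the floor, stood at 0.0931 to 0.128 CPM (counts scaled to library size, the level used below to compare libraries). The targeted gene Dnm1l had 69.9 to 75.1 CPM in WT against 58.7 to 66.3 CPM with Drp1 KO, which did not overlap but missed the test (log2 fold change -0.23, adjusted p = 0.248, edgeR), and the counts do not show which of its exons were read. Dnm1l passed in 1 of 15 other settings of the processing. All 12 macrophage markers listed were detected, of which Csf1r, Mertk and Mrc1 fell and Fcgr1 rose in Drp1 KO BMDMs (edgeR, adjusted p under 0.05, which 3.36% of all genes tested reached). All 9 neutrophil markers tested had higher fitted levels in Drp1 KO BMDMs, none of them at an adjusted p under 0.05 and 5 at an unadjusted p under 0.05 (edgeR, against 16.4% of all genes), with a summed level of 90.4 to 98.5 CPM in WT against 119 to 221 CPM with Drp1 KO, while Ly6g was at 0 in all 6. Most of that sum was Mmp8, with 70.4 to 89.0 CPM in WT against 69.3 to 186 CPM with Drp1 KO, which overlapped. Of the markers of fibroblasts (7 tested), lymphocytes (6), erythroid cells (2, with 5 of 7 at 0) and dendritic cells (5), none had an adjusted p under 0.05 (edgeR; 0, 1, 0 and 1 at an unadjusted p under 0.05, against the same 16.4%), and their summed levels overlapped between the genotypes. The part of other cell types in the histone levels was not tested.

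The feature that sets replication-dependent messages apart could be read from the genome. The search asked for the 16-base histone form, a stem of 6 base pairs beginning GG and ending CC that closes a loop of 4 bases. T and A were also required at set places in and beside the loop. The likeness of the forms below is thus partly set by the search. Such a stem-loop lay within 150 bases after the stop codon in 60 of the 65 replication-dependent genes. Of other coding genes, 0.0278% (6 of 21575) had it. The 5 in which it was not found were H2ac22, H2bc21, H2bc22, H2bc23 and H2bc24. Only the stop codon of the annotation's main transcript was searched. For H2bc22, H2bc23 and H2bc24 that transcript is spliced and its stop codon lies in a later exon. The end of an unspliced form was not searched there. Among the other histones the stem-loop was found in the germline H1f6 and in H2ax. It was not found in H3f3a, H3f3b, H2az1, H2az2, H2aj, H1f0 or H1f10. The stem-loops of 5 genes are shown because H1f2 and H2ac24 have the commonest form, H4c18 the commonest H4 form, H3c6 the form that came next outside H4 and H2ax the only one among the variants, from GRCm39, in the direction of the message, with the 16 bases of the stem-loop in capitals.
H1f2 (chr13:23923495-23923510, plus strand): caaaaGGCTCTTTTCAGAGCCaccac
H2ac24 (chr13:22017199-22017214, minus strand): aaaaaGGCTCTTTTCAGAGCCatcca
H4c18 (chr13:22015968-22015983, minus strand): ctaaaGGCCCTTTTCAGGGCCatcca
H3c6 (chr13:23746077-23746092, minus strand): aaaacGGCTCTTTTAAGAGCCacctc
H2ax (chr9:44246537-44246552, plus strand): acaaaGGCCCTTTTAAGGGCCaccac
The form of H1f2 and H2ac24 was the commonest, in 38 of the 62 histone genes with a stem-loop. All 13 H4 genes had another stem, the one of H4c18 in 8 of them, and none of the H4 forms occurred in an H1, H2A, H2B or H3 gene of the replication-dependent classes. The loop and its flanks are where SLBP and the processing machinery bind.

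The 2 genes of the replication-dependent classes that passed the test lie next to each other on chromosome 13, H4c18 at chr13:22015937-22016366 and H2ac24 at chr13:22017196-22017677, both on the minus strand of GRCm39. The 200 bases before their starts are shown because the genes share neighbours and direction of change, with 3 motifs searched on either strand and set in capitals where present: CCAAT, the box bound by NF-Y, the letters TATAAA, which also occur in TATA boxes, and the octamer bound by POU factors, ATTTGCAT. A match at any position of the window was counted, and the TATAAA of H4c18 lies farther from the start than a TATA box does. The marked motifs do not overlap each other in these windows.
H2ac24 promoter (chr13:22017678-22017877, minus strand): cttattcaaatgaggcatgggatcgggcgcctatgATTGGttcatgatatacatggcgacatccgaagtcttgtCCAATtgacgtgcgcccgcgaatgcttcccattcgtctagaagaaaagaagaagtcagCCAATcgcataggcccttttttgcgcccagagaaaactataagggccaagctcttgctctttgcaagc
H4c18 promoter (chr13:22016367-22016566, minus strand): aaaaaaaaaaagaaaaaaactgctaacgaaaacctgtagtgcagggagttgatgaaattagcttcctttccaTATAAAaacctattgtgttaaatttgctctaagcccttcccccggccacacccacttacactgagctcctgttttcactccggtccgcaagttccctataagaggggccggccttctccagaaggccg
CCAAT was present in this window in 78.5% of replication-dependent genes (all 17 H2A genes, 17 of 18 H2B genes and 4 of 13 H4 genes) and in 32.1% of other coding genes. TATAAA was present in 41.5% against 9.44%, and the octamer in 18.5% against 1.18%, in H2A and H2B genes only among the replication-dependent ones. The H4c18 window is the same over all 200 bases as that of H4c17, and 170 bases in a row are shared by the windows of H2ac24 and H2ac23. H4c17 and H2ac23 form a copy of the H4c18 and H2ac24 neighbourhood on the plus strand, at chr13:21994635-21996317.

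Because histone genes of a class are so alike, reads had to be divided between them by the authors' quantification. Of the 31-base words in its transcripts, a replication-dependent gene shared a median of 56.3% with another gene, and 39 of the 65 shared more than 50%. Sharing was lowest for H1 genes, at 0.281% to 34.7%, and for the 8 variant and replacement histones, at 0 to 30.7%, and reached 100% for H2ac19, whose sequence lies within that of H2ac18. Values of single H2A, H2B, H3 and H4 genes below are uncertain in this respect, and sums over genes linked by shared sequence are given where a result turns on them. Genes were linked where at least 75% of the words of one occurred in the other, and a linked gene need not share that much itself.

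In level, the variant H3 genes stood above every other histone class. Levels between genes are compared in TPM, which are corrected for transcript length. H3f3a, which encodes the replacement H3 placed outside replication, had 1664, 1780 and 1732 TPM in WT and 1417, 1801 and 1759 TPM in Drp1 KO libraries. H3f3b, which encodes the same protein, had 374, 370 and 371 TPM in WT and 354, 413 and 353 TPM in Drp1 KO libraries. The groups overlapped for both genes. Among the genes described here, variants took 93.6% to 96.8% of the H3 TPM in every library, whereas they took 13.5% to 19.1% of the H2A TPM.

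H2ac18 led the replication-dependent genes. This H2A gene of the chromosome 3 cluster had 851, 827 and 781 TPM in WT and 617, 802 and 762 TPM in Drp1 KO libraries. H2bc4, an H2B gene of chromosome 13, had 281, 303 and 317 TPM in WT and 305, 357 and 289 TPM in Drp1 KO libraries. H2ac20, an H2A gene of the same cluster as H2ac18, averaged 127 TPM over the 6 libraries. These 3 genes held 49.8% to 56.2% of the replication-dependent TPM in WT against 43.2% to 51.9% with Drp1 KO, and the groups overlapped for each gene and for the share. The highest H1 gene was H1f2, at a mean of 119 TPM, followed by H1f4 at 37.8 and H1f5 at 14.7 TPM. H2bc18 and H2bc15 followed H2bc4 among H2B genes with 102 and 26.6 TPM, and H2ac10 followed H2ac18 and H2ac20 among H2A genes with 88.7 TPM. The highest H3 genes were H3c13, H3c2 and H3c6, at 19.2, 15.4 and 12.4 TPM. The highest H4 genes were H4c12 and H4c8, both near 30.4 TPM, and H4c18 at 19.8 TPM.

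Where the quantified transcript ends relative to the stem-loop differed between these genes. In 15 replication-dependent genes the annotated transcript ended before the stem-loop was complete, in 22 it ended 0 to 100 bases past it, and in 22 it ran more than 100 bases past it. For H2bc4 the end could not be placed, because the quantified transcript differed in length from the one in the annotation used here. The transcripts that ran on included H1f2 (840 bases past the stem-loop), H1f4 (1153 bases) and H4c14 (1257 bases), and 11 of the 22 had a poly(A) signal in their last 50 bases, against 1 of the 37 shorter ones. Median level was 4.98 TPM for the long transcripts, 13.9 TPM for those ending within 100 bases past the stem-loop and 17.3 TPM for those ending before it. These levels depend on the transcript models, since a TPM value divides by the modelled length.

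**Figure D1:**
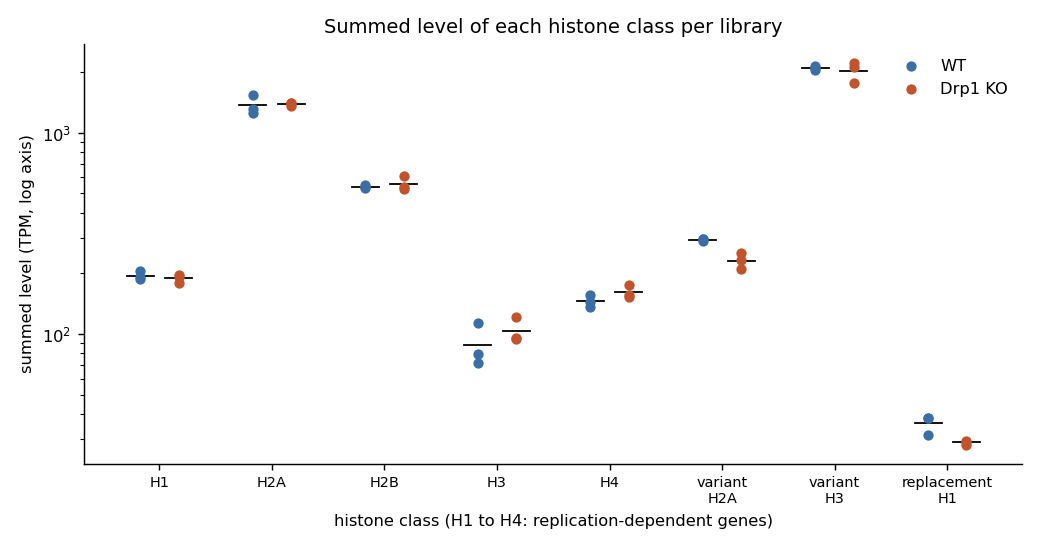
Summed level (TPM, log axis) of each histone class in each library, with the mean of 3 libraries as a line. The groups overlap in the 5 replication-dependent classes and in variant H3, and Drp1 KO libraries lie below WT libraries in variant H2A and in the replacement H1 genes. In CPM, H1f0, which holds most of the replacement H1 sum, overlaps between the genotypes.

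Summed over genes, replication-dependent messages overlapped between the genotypes. Their summed level was 2557, 2236 and 2204 TPM in WT and 2386, 2451 and 2351 TPM in Drp1 KO libraries, a ratio of 1.03 between the means. Their share of the TPM of all histone genes described here was 51.9%, 47.3% and 47.5% in WT. In Drp1 KO libraries it was 52.1%, 48.5% and 48.3%. The highest value of each genotype was in its library 1, and the groups overlapped. Between libraries of the same number the Drp1 KO library was the higher one, but the sources do not call equal numbers pairs. The means differed by 0.773 percentage points, and by -0.441 without library 1 of the Drp1 KO group. In CPM the share was 40.2%, 37.5% and 38.0% in WT. It was 42.7%, 39.5% and 39.8% in Drp1 KO libraries, again overlapping and higher at each number. Neither difference was tested. Libraries 1 of both genotypes had the lowest share of mitochondrially encoded counts (0.297% and 0.342%, against 0.494% to 0.690%) and the highest sum over 36 S phase and cell cycle genes (1086 CPM in both, against 866 to 960 CPM). The part of these library differences in the histone share was not tested. In poly(A) RNA of bulk cultures, a difference in the number of cells of a type and a difference in message per cell cannot be told apart.

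Gene by gene, more replication-dependent genes had higher than lower fitted levels in Drp1 KO BMDMs. The fit was edgeR's quasi-likelihood test over all 18506 genes with Benjamini-Hochberg adjustment, and fold changes are Drp1 KO against WT on the log2 scale. Of the 65 genes, 51 were higher and 14 lower, with a median of 0.19, while 50.6% of all genes tested were higher and their median was 0.00. H2ac19 counts among the 51 only through a single library, as described below, and its fitted change is not meaningful. The other 64 genes ranged from -1.06 to 1.23. Medians by class were 0.44 for H3, 0.19 for H4, 0.17 for H2A, 0.15 for H2B and 0.10 for H1. The 39 genes with more than 50% shared sequence had a median of 0.19, and the 26 with less had 0.14. Grouped by the stem-loop instead of the symbol, 49 of the 62 genes with one were higher, with a median of 0.19. Of the 12 coding genes in which none was found, 4 were higher, with a median of -0.22. All of the 62 except H1f6 and H2ax are replication-dependent genes counted above, so this grouping is no separate result. Since members share reads, these counts are not independent observations, and the median of the 65 was 0.38 without WT library 1, 0.079 without library 1 of the Drp1 KO group and 0.10 with length-scaled counts.

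Few of these differences passed the test. Of the 77 histone genes, 4 had an adjusted p under 0.05 in that test, where 3.36% of all genes tested did. Among replication-dependent genes, 2 were higher (2.29% of all genes tested were called higher) and none was lower (1.06% of all genes), with 17 of the 65 at an unadjusted p under 0.05 (16.4% of all genes). By the looser rule of the study's methods (unadjusted p under 0.05 with an absolute log2 fold change over 0.32), 13 were higher (7.19% of all genes) and 3 lower (5.48%). Every Drp1 KO library lay above every WT library for 12 of the 65 genes (11.7% of all genes) and below for 1, the H2B gene H2bc21 (10.3% of all genes). When the library number entered the same test as a replicate block, 10 replication-dependent genes were called higher and 2 lower, where 6.73% and 5.22% of all genes were called. H2ac19 is among the 17, the 13 and the 10. DESeq2 gave 69 of the 77 histone genes an adjusted p and called 6 (8.8% of all genes with one), the 4 of edgeR without the block and H1f4 and H3c10.

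**Figure D2:**
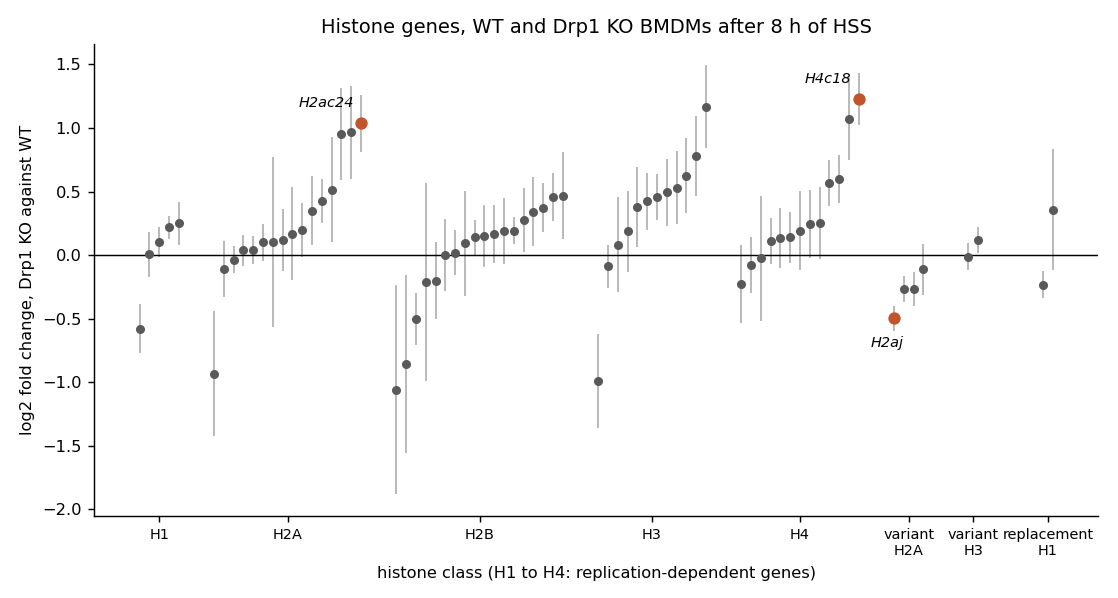
Log2 fold change of each histone gene, Drp1 KO against WT BMDMs, by class, with the standard error as a bar. Coloured points had an adjusted p under 0.05 (H2ac24, H4c18 and H2aj); H2ac19, H1f6 and the 3 pseudogenes are not drawn.

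The replication-dependent genes called were the adjacent H4c18 and H2ac24. H4c18, which encodes H4, had 2.24, 2.17 and 2.66 CPM in WT and 4.86, 5.07 and 6.66 CPM in Drp1 KO libraries. All Drp1 KO libraries were above all WT libraries, and the log2 fold change was 1.23 ± 0.20 (SE, adjusted p = 0.0099, edgeR). Without WT library 2 the adjusted p (edgeR) was 0.0769. The near-identical H4c17 had 1.596, 1.99 and 2.04 CPM in WT and 3.22, 1.74 and 1.56 CPM in Drp1 KO libraries, which overlapped. Added together, H4c17 and H4c18 had 3.84, 4.16 and 4.70 CPM in WT and 8.08, 6.81 and 8.22 CPM in Drp1 KO libraries, and rose by 0.86 on the log2 scale (SE 0.16, adjusted p = 0.0202, edgeR). The rise was thus also present with both copies added.

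H2ac24, which encodes H2A, had 17.6, 11.3 and 11.4 CPM in WT and 33.5, 29.4 and 19.6 CPM in Drp1 KO libraries. The groups did not overlap, and the log2 fold change was 1.04 (SE 0.22, adjusted p = 0.0340, edgeR). This call was less firm than that of H4c18. Leaving out WT library 2 or 3 raised the adjusted p (edgeR) to 0.188 or 0.163, leaving out library 1 or 2 of the Drp1 KO group raised it to 0.0647 or 0.139, and length-scaled counts gave 0.0579. H2ac23, the copy of H2ac24, had 2.03, 1.80 and 0.579 CPM in WT and 0.681, 0.550 and 3.37 CPM in Drp1 KO libraries. Both together had 19.6, 13.1 and 11.96 CPM in WT and 34.2, 29.9 and 22.9 CPM in Drp1 KO libraries, without overlap and with a ratio of 1.95 between the means. The 9 H2A genes linked to H2ac24 directly or through each other (H2ac7, H2ac10 to H2ac13, H2ac14-ps and H2ac22 to H2ac24) together had 76.4, 47.3 and 44.8 CPM in WT and 112, 81.1 and 74.4 CPM in Drp1 KO libraries. The lowest Drp1 KO library lay just under WT library 1, and the log2 fold change of the sum was 0.66 (SE 0.21, adjusted p = 0.135, edgeR).

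Of the genes that did not pass, those with the smallest p among higher ones, after the called genes, were H3c10 and H4c11. H3c10, which encodes H3, had 1.21, 0.562 and 0.920 CPM in WT and 2.32, 1.74 and 1.99 CPM in Drp1 KO libraries, with no overlap (log2 fold change 1.17, SE 0.32, adjusted p = 0.0889, edgeR). It shares 85.3% of its words with H3c11. Added to H3c11 and to the other H3 genes linked with it (H3c2, H3c4 and H3c8, which share less of their own words), the change was 0.36 (adjusted p = 0.455, edgeR). H4c11 had 0.487 to 0.716 CPM in WT against 1.17 to 1.56 CPM with Drp1 KO (log2 fold change 1.07, adjusted p = 0.118, edgeR). H4c14, an H4 gene of chromosome 3 with only 2.31% shared sequence, had 3.23, 3.41 and 3.37 CPM in WT and 4.22, 5.65 and 4.97 CPM in Drp1 KO libraries (log2 fold change 0.57, adjusted p = 0.135, edgeR). It passed with the replicate block (adjusted p = 0.0387, edgeR), as did H3c10, H4c9, H2ac7, H2ac10, H2ac13 and H3c13. The adjusted p (edgeR) of these with the block ran from 0.00141 for H2ac13 to 0.0498 for H3c13.

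H1f4 and H3c15 had the smallest p among the lower replication-dependent genes. H1f4, a somatic linker histone, had 67.0, 63.5 and 50.7 CPM in WT and 54.8, 35.2 and 31.4 CPM in Drp1 KO libraries. Drp1 KO library 1 overlapped the WT range (log2 fold change -0.58, SE 0.19, adjusted p = 0.156, edgeR), and without it the change was -0.87 (adjusted p = 0.00831, edgeR). The gene passed with the replicate block, at -0.61 (adjusted p = 0.00411, edgeR), and 34.7% of its words are shared, mostly with H2bc6. H1f2, the most abundant linker histone, had 136, 129 and 130 CPM in WT and 154, 162 and 143 CPM in Drp1 KO libraries, without overlap (log2 fold change 0.22, adjusted p = 0.253, edgeR). The 2 linker histones with the highest levels thus had fitted changes of opposite sign, a difference that was not tested. H1f5 differed by 0.01 (adjusted p = 0.995, edgeR). H3c15 had 4.57, 1.57 and 2.42 CPM in WT and 1.68, 1.253 and 1.38 CPM in Drp1 KO libraries, which overlapped (log2 fold change -0.99, adjusted p = 0.210, edgeR), and summed with H3c13 and H3c14 the change was 0.00. With the replicate block H3c15 passed (-0.88, adjusted p = 0.0394, edgeR).

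A gene that seemed to appear in a single library was H2ac19. It had 19.2 CPM in Drp1 KO library 3 and was listed at 0 in the other 5 libraries. Its whole sequence is contained in H2ac18, and the sum of both differed by -0.01 between the genotypes (adjusted p = 0.991, edgeR). The pseudogene H2ac14-ps behaved alike, with 1.96 CPM in the same library and at most 0.225 CPM in the others. H2ac5-ps stayed between 0 and 0.184 CPM, and H1f6 between 0 and 0.150 CPM, near the floor.

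**Figure D3:**
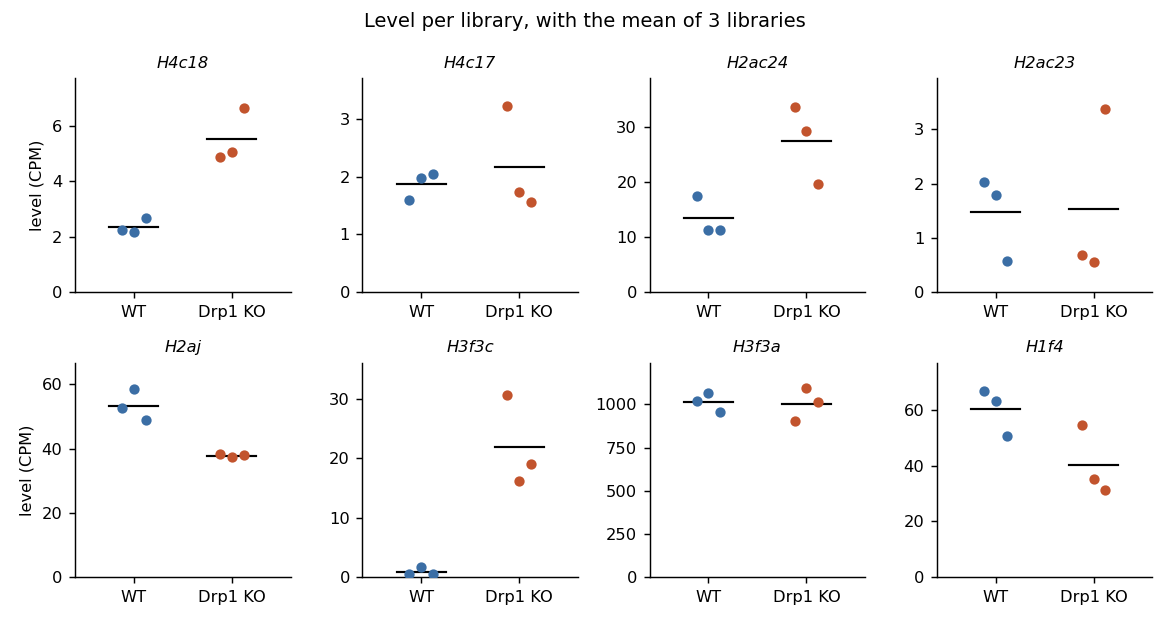
Level (CPM) of 8 histone genes in each WT and Drp1 KO library, with the mean as a line; each axis starts at 0. H4c18, H2ac24 and H3f3c lie higher in every Drp1 KO library and H2aj lower, while H4c17, H2ac23, H3f3a and H1f4 overlap.

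**Figure D4:**
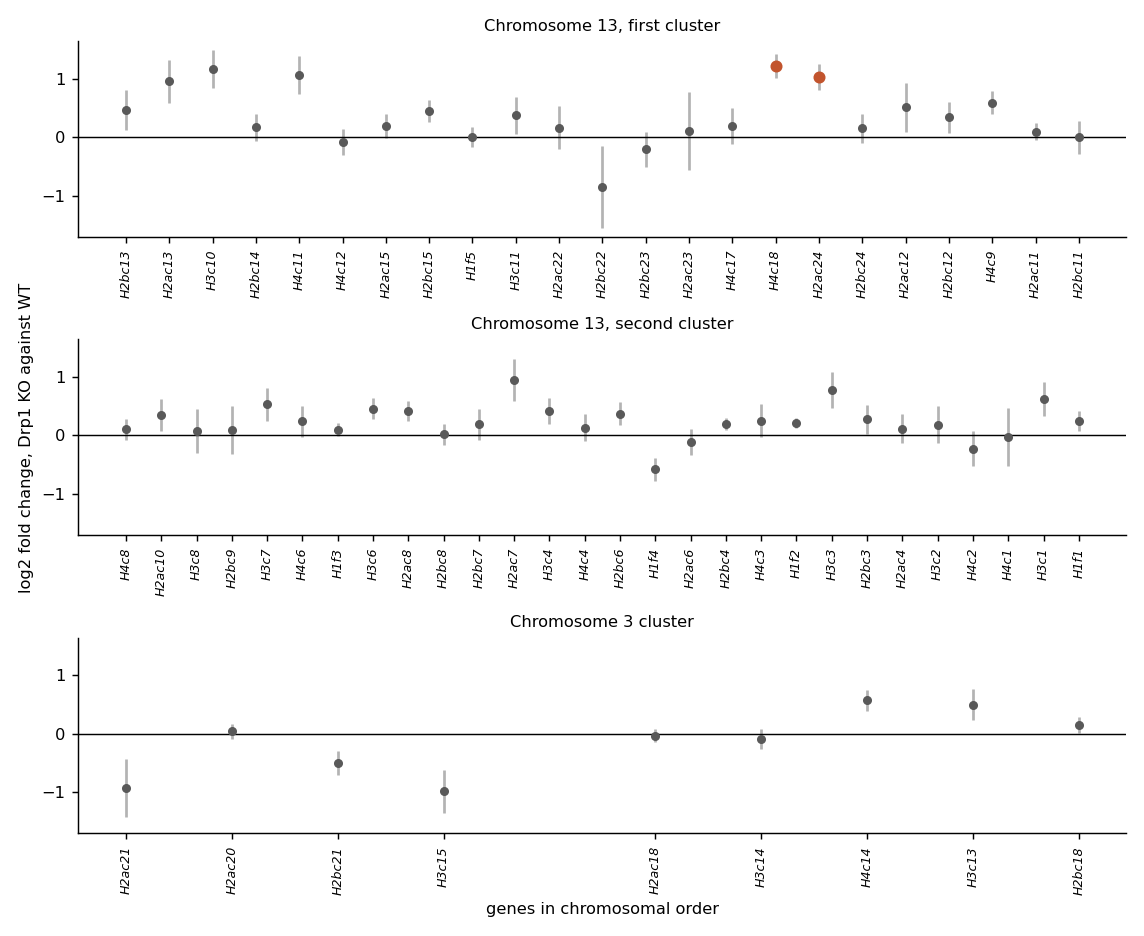
Log2 fold change with standard error of replication-dependent genes in their order along the 3 larger clusters (23, 28 and 10 genes; H2ac19 is not drawn). Coloured points are H4c18 and H2ac24, neighbours in the first cluster.

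By position, the genes of the chromosome 13 clusters were higher more often than those of chromosome 3. The first chromosome 13 cluster (chr13:21899933-22227846) held 23 genes, of which 20 were higher, with a median of 0.20. The second (chr13:23715220-23948389) held 28 genes, of which 24 were higher, with a median of 0.21. Of the 10 genes on chromosome 3 (chr3:96127181-96177448), 5 were higher and the median was 0.00. The 3 genes on chromosome 11 had a median of -0.21, at levels under 1 CPM for H2bc26 and H2bc27, and H4c16 alone on chromosome 6 had 0.14. The difference between clusters was not tested, and both called genes lay in the first cluster.

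Of the variant H2A genes, H2aj fell in Drp1 KO BMDMs, and the fitted changes of the other 3 were below 0 without passing the test. The summed level of the 4 genes was 297, 290 and 296 TPM in WT and 211, 251 and 233 TPM in Drp1 KO libraries. No Drp1 KO library reached the WT range, and the ratio of the means was 0.786. Of the TPM of the H2A genes described here, variants made up 16.2%, 18.1% and 19.1% in WT. In Drp1 KO libraries they made up 13.5%, 15.2% and 14.3%. Macroh2a1, an H2A variant outside the chosen symbols, is not in this share. Neither the sum and share nor the difference from the replication-dependent genes was tested.

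H2aj, which encodes H2A.J, a variant known to accumulate in senescent cells, was the only one of the 8 variant and replacement histones called, where 1.06% of all genes were called lower. It had 52.7, 58.4 and 49.0 CPM in WT and 38.2, 37.2 and 38.0 CPM in Drp1 KO libraries, and fell by 0.50 on the log2 scale (SE 0.10, adjusted p = 0.0242, edgeR). The 3 Drp1 KO libraries were close to each other and below all WT libraries. The adjusted p (edgeR) rose to 0.142 or 0.0522 when WT library 2 or 3 was left out, and to 0.117 or 0.0733 when library 2 or 3 of the Drp1 KO group was. It was 0.167 with length-scaled counts and 0.0980 after a correction for GC content, with fold changes of -0.39 and -0.41.

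H2az1 and H2az2 encode H2A.Z, which marks promoters and is exchanged by SWR-type remodellers. H2az1 had 100, 86.4 and 97.4 CPM in WT and 72.6, 86.8 and 76.3 CPM in Drp1 KO libraries (log2 fold change -0.27, SE 0.10, adjusted p = 0.229, edgeR). The ranges touched, since Drp1 KO library 2 was above WT library 2. H2az2 had 10.48, 11.02 and 12.98 CPM in WT and 9.49, 9.84 and 9.32 CPM in Drp1 KO libraries, without overlap (log2 fold change -0.27, adjusted p = 0.364, edgeR). H2ax, whose protein is phosphorylated at DNA breaks, had 7.91 to 13.2 CPM in WT against 7.97 to 10.3 CPM with Drp1 KO (log2 fold change -0.11, adjusted p = 0.870, edgeR). H2ax is also the variant with a stem-loop.

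Among the replacement linker histones, H1f0, which accumulates in non-dividing cells, had 45.3, 57.2 and 54.5 CPM in WT and 45.4, 44.6 and 43.7 CPM in Drp1 KO libraries (log2 fold change -0.23, adjusted p = 0.318, edgeR). Its groups overlapped in CPM and did not in TPM. H1f10 was low, at 0.613 to 1.596 CPM in WT against 0.611 to 1.91 CPM with Drp1 KO (log2 fold change 0.36, adjusted p = 0.807, edgeR). The 2 variant H3 genes had changes of -0.01 for H3f3a (adjusted p = 0.980, edgeR) and 0.12 for H3f3b (adjusted p = 0.664, edgeR). Over the 8 genes, 6 were lower and 2 higher, with a median of -0.17. Without Drp1 KO library 3 it was -0.11.

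The largest fold change of a histone gene outside H2ac19 belonged to H3f3c, an intronless copy of H3f3a annotated as a processed pseudogene (chr2:119496107-119496517, minus strand). It had 0.474, 1.65 and 0.443 CPM in WT and 30.7, 16.2 and 19.05 CPM in Drp1 KO libraries. The groups were far apart, with a log2 fold change of 4.67 ± 0.43 (SE, adjusted p = 0.000399, edgeR). H3f3c shares 91.3% of its words with other genes, 79.3% with H3f3a. Together, H3f3a and H3f3c had 1018, 1067 and 959 CPM in WT and 934, 1113 and 1032 CPM in Drp1 KO libraries, and differed by 0.02 (adjusted p = 0.976, edgeR).

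Within H3f3a, the division of counts between transcripts differed as well. The transcript of 888 bases took 59.9%, 62.7% and 61.6% of the gene's counts in WT and 60.9%, 55.8% and 56.9% in Drp1 KO libraries. A transcript of 724 bases (ENSMUST00000162814) took 4.69%, 2.13% and 4.36% in WT and 11.5%, 13.7% and 15.3% in Drp1 KO libraries. Its mean share was 3.73% ± 1.39 in WT and 13.5% ± 1.93 in Drp1 KO BMDMs (SD, n = 3 each), and a two-sided exact permutation test gave p = 0.1, which is the lowest value possible for 3 against 3 libraries. The transcript of 2841 bases took 35.3%, 35.0% and 33.8% in WT and 27.5%, 30.3% and 27.6% in Drp1 KO libraries, again without overlap. In an edgeR fit over 62020 transcripts, that of 724 bases had a log2 fold change of 1.86 ± 0.30 (SE, adjusted p = 0.0697). The annotation used here gives the H3f3a transcripts of 888, 724 and 2841 bases other lengths than the deposited ones. Which bases they covered was not determined.

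**Figure D5:**
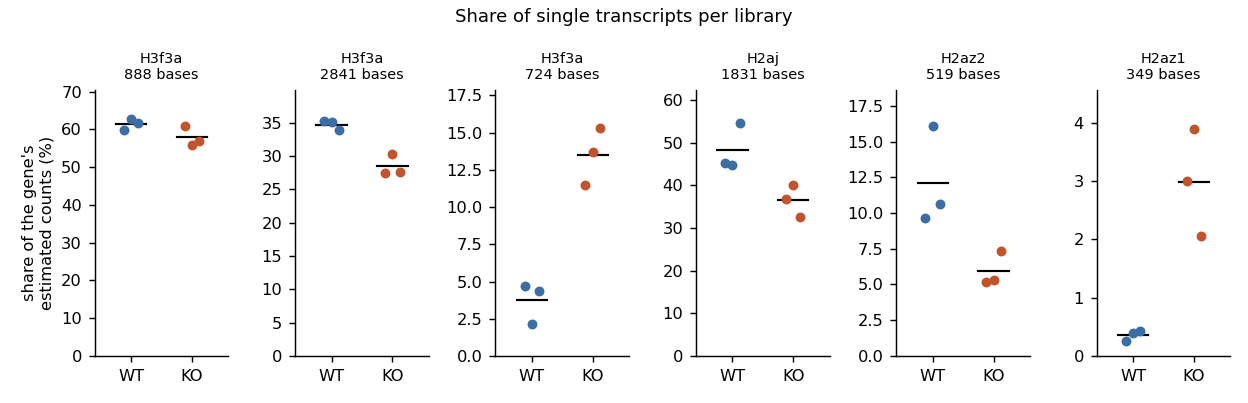
Share of a gene's estimated counts (%) on single transcripts of H3f3a, H2aj, H2az2 and H2az1 in each library, with the mean as a line; each axis starts at 0. Shares overlap between the genotypes for the H3f3a transcript of 888 bases and for none of the other 5.

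In H2aj the longer of 2 transcripts (1831 bases) took 45.2%, 44.7% and 54.6% of the counts in WT and 36.7%, 40.2% and 32.6% in Drp1 KO libraries. The longer form fell by 0.89 on the log2 scale and the form of 577 bases by 0.21, neither at an adjusted p under 0.05 (0.0582 and 0.785, edgeR over transcripts). In H2az2 the transcript of 519 bases took 9.67%, 16.1% and 10.6% in WT and 5.20%, 5.32% and 7.33% in Drp1 KO libraries. This transcript and the H2aj form of 577 bases also have another length in the annotation used here. In H2az1 a transcript of 349 bases annotated for nonsense-mediated decay took 0.253%, 0.387% and 0.428% in WT and 3.01%, 3.90% and 2.06% in Drp1 KO libraries (log2 fold change 2.80, adjusted p = 0.0682, edgeR), and 91.2% of its words are shared with Tmcc1. Over the 10 histone genes with at least 2 transcripts of 10 counts, 12 of 30 transcript shares did not overlap between the genotypes, where 16.5% of such shares did not overlap over all genes, and the smallest p each could reach was 0.1 (exact permutation test). Shares within a gene depend on each other, and in H2aj and H2az2 both transcripts are counted, so these are not separate observations. Of 97 histone transcripts tested in the fit over all transcripts, 1 had an adjusted p under 0.05, the transcript of H3f3c, where 0.332% of all transcripts were called. With the replicate block, 0 transcripts were called in that edgeR fit, histone or other. For the 97 histone transcripts, 14 had an unadjusted p under 0.05 without the block (10.3% of all transcripts).

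Genes that make, mature and place histones were read from lists beside the histones. Of 27 genes for transcription, 3′ end processing and decay of histone messages, 12 were higher and 15 lower, with a median of -0.02, and 0 had an adjusted p under 0.05 (2 at an unadjusted p under 0.05, against 16.4% of all genes, and 1 called with the replicate block, against 12% of all genes, edgeR). Slbp, the stem-loop binding protein, had 30.5, 31.3 and 29.8 CPM in WT and 27.9, 28.2 and 27.8 CPM in Drp1 KO libraries. Its groups did not overlap, but the log2 fold change was -0.13 (SE 0.09, adjusted p = 0.585, edgeR). Npat, the coactivator at histone promoters, had 31.05, 26.2 and 29.0 CPM in WT and 32.2, 30.4 and 30.2 CPM in Drp1 KO libraries, which overlapped (log2 fold change 0.11, adjusted p = 0.70, edgeR).

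Of 26 histone chaperone genes, 11 were higher and 15 lower, with a median of -0.13. Their summed level was 2219 to 2377 CPM in WT against 2015 to 2178 CPM with Drp1 KO, without overlap. Nap1l1, an H2A and H2B chaperone, took the largest part of that sum's difference, with 444 to 472 CPM in WT against 335 to 385 CPM with Drp1 KO (adjusted p = 0.0762, edgeR). Anp32e, whose product removes H2A.Z from nucleosomes, was the only one called of the 26, where 1.06% of all genes were called lower, and 8 of the 26 had an unadjusted p under 0.05 (16.4% of all genes). It had 103, 98.3 and 93.0 CPM in WT and 74.6, 71.7 and 70.4 CPM in Drp1 KO libraries, and fell by 0.44 on the log2 scale (SE 0.09, adjusted p = 0.0247, edgeR). With WT library 2 or 3 left out its adjusted p (edgeR) was 0.127 or 0.0763, and with library 2 or 3 of the Drp1 KO group left out it was 0.109 or 0.0862. With the replicate block 7 of the 26 chaperone genes were called, where 12% of all genes were.

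Of 36 S phase and cell cycle genes, 26 were higher and 10 lower, with a median of 0.14 and 0 at an adjusted p under 0.05 (5 at an unadjusted p under 0.05 and 3 called with the replicate block, edgeR, against the same 16.4% and 12% of all genes). Their summed level overlapped between the genotypes. Of 11 histone variant genes with other symbols, 5 were tested and 0 called (edgeR; none at an unadjusted p under 0.05), among them Macroh2a1 with a change of 0.00 and Cenpa, the centromeric H3, with 0.04. No gene of 6 listed for RNA without a poly(A) tail or retained in the nucleus (such as Malat1 and Rn7sk) was in the deposited tables, so carry-over of RNA without a tail could not be read from them.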

How the data were processed

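Poly(A)-selected RNA of 3 WT and 3 Drp1 KO BMDM libraries was analysed. The authors quantified the reads with kallisto 0.46.1 on Ensembl cDNA of GRCm39 and deposited, for each transcript, an estimated count and a TPM value; the strand setting is not given in the sources used here. Of 116873 transcripts, 99.4% matched GENCODE vM39 by identifier, and 74.0% of the matched ones had the same length there. Gene values are the rounded sums of the estimated counts of their transcripts, and 18506 genes with at least 10 counts in total were tested with edgeR 4.0.16 (R 4.3.3; TMM normalization, quasi-likelihood test, Benjamini-Hochberg adjustment over all genes tested). CPM are counts scaled to normalized library size, and sums of TPM use the deposited values. Standard errors are the fold change over the square root of F. Exact tests were permutation tests over libraries, and their smallest two-sided p is 0.1. The script was first tested on simulated data.

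The members and lists were chosen with earlier results of these data known. The genes named by rule are all histone genes with an adjusted p under 0.05, and the 3 with the smallest p in each direction. Further ones are the 3 with the highest mean TPM in each class, Slbp, Npat and Dnm1l. Genes with an adjusted p under 0.05 of the lists other than cell type markers were added (at most 5 a list). Others were named after their values were seen. Shared sequence is the share of 31-base words of a gene's annotated transcripts found in other genes. Deviations from the group mean correlated at 0.510, 0.204 and 0.298 between same-numbered libraries (12248 genes), each over 0.1, the level set for giving a fit with the number as a replicate block beside the unblocked one. WT library 2 correlated more with Drp1 KO library 3 (0.326) than with its own number, so the pairing of numbers 2 and 3 is uncertain. Alternatives were DESeq2 1.42.0, other size factors and filters, length-scaled counts, a GC correction, the replicate block and leaving out each library. Adding genes linked by at least 75% of the words of one of them and the fit over transcripts were chosen after seeing the data. Counting intervals cover counting error only. Promoters and stem-loops were read from the GRCm39 genome at GENCODE positions.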

Additional observations from a re-analysis of the deposited data

How the results depend on the processing

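Over 16 settings and the 32 genes named by rule, 422 values kept direction and call, 18 kept direction but lost the call, 13 gained it and 29 changed sign. Of all genes, 621 had an adjusted p under 0.05, and this was 1065 with at least 1 count, 2212 with the replicate block (pairing by library number), 2102 with block and GC correction, 1155 by DESeq2, 2345 by the looser fold rule and 181 (without WT library 2) to 904 with 1 library left out. The 4 histone genes became 8 with at least 1 count, 2 with length-scaled counts, 14 with the block, 16 with block and GC correction, 2 with linked genes added together, 18 by the fold rule (H2ac19, read in 1 library only, is among the 8, 14, 16 and 18) and 1 to 6 with 1 library left out (1 without WT library 2, 2 without WT library 3 or Drp1 KO library 2). By the fold rule, 14 histone genes were higher (9 with linked genes added, 8 to 18 with 1 library left out) and 4 lower (2 to 5). The median of replication-dependent genes ran from 0.079 to 0.38, that of variants from -0.22 to -0.11, the difference in the replication-dependent share of TPM from -0.441 to 2.28 percentage points, and the count of transcript shares without overlap from 13 to 17, when 1 library was left out. For histone message processing the block called 1 gene. For chaperones, 1 gene was called, against 2 with library size only or GC correction, 3 with at least 1 count, length-scaled counts or DESeq2, 7 with the block, 6 with block and GC correction and 0 to 2 with 1 library left out. For S phase genes 3 were called with the block, with or without GC correction, and 0 to 1 with 1 library left out. The sign changed for H1f5 with median-of-ratios size factors (-0.0057), library size only (-0.0045), filterByExpr (-0.0065), at least 1 count (-0.0017) and DESeq2 (-0.0058), for H2ac18 with GC correction (0.063) and with block and GC correction (0.044), for H2ac20 with length-scaled counts (-0.033), and for H3f3a with length-scaled counts (0.024) and linked genes added (0.016). It also changed for H3f3b (-0.021, and -0.022 with the block) and Npat (-0.035, and -0.029 with the block) with GC correction, and for H3c13 with linked genes added (-0.00014). With 1 library left out, values on both sides of 0 were found for H1f5 (-0.15 to 0.15), H2ac18 (-0.10 to 0.035), H2ac20 (-0.079 to 0.11), H2ac10 (-0.013 to 0.65), H3c2 (-0.094 to 0.71), H4c12 (-0.19 to 0.060), H4c8 (-0.11 to 0.22), H1f6 (-0.88 to 0.059) and H3f3a (-0.076 to 0.047). The cause of these differences was not tested. Beyond the calls named here and in the report, H2ac19 included, the block changed no other histone call. The median of all genes stayed between -0.03 and 0.00 on the log2 scale under every setting. At this depth, genes near 0.1 CPM such as H1f6 and H2ac5-ps lay close to the floor, and what difference could be seen at such levels was not tested.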
